A study of Mus musculus with 6 samples.

Results

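The genes described here are 53 genes of cell proliferation, which act at the G1/S transition, in DNA replication or in mitosis, measured in aortas of atherosclerotic ApoE KO mice and of wild type mice. A probe belonged to the set if its gene symbol, or an older synonym of it, was that of a listed gene. Of the 53 genes, 52 were found among the 35028 features measured: 5 of the G1/S transition, 15 of replication and 32 of mitosis. Cdc45 was found under an older synonym, and Ube2c was not analysed here. The choice of genes used no measured value of the comparison, but it was made with earlier results of these data known.

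The ApoE KO group was 3 aortas of mice labelled ApoE KO, which lack apolipoprotein E, and the WT group was 3 aortas of mice labelled C57BL6. The labels give both groups the genetic background C57BL6 db/+ and a high fat diet. The growth protocol gives both 16 weeks of this diet, begun at an age of 8 weeks, and reports lesions in the knockout aortas and none in those of the controls. The ages labelled were 32 weeks for ApoE KO mice and 24 weeks for WT mice, while the source names give 9 weeks, and unassigned array headings in a deposited table speak of a vehicle and of another diet length. The effects of genotype, age, length of diet and any vehicle cannot be told apart here. The samples are called biological replicates, and pooling of aortas is not described in the labels. If any aortas were pooled or split, the p-values measure the spread between these samples only.

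Cells that enter division commit at the G1/S transition, where cyclin D and cyclin E with their kinases release E2F factors from the pocket proteins and the genes for DNA synthesis are switched on. Replication origins are licensed by loading of the MCM helicase, fired in S phase, and kept from firing again, and a later wave of transcription through FOXM1, B-MYB and the MuvB complex supplies the cyclin B kinase, the kinetochore and the spindle. In the adult aorta most cells are quiescent, and in atherosclerotic lesions dividing macrophages and smooth muscle cells have been described.

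Each value is a log2 ratio of an aorta's own Cy5-labelled RNA to a common Cy3-labelled reference, labelled as from C57BL6 control aortas on the diet, so that 0 means the same signal as the reference. The 3 values of a group are given in the order of replicates 1, 2 and 3. A log2 fold change is the ApoE KO mean minus the WT mean with its standard error from limma (n = 3 per group), and a gene was called where the Benjamini-Hochberg adjusted p over all 35028 features was under 0.05. The log2 ratio of Apoe itself was -1.31, -1.21 and -1.31 in ApoE KO aortas, against 0.00, -0.32 and 0.12 in WT aortas, a log2 fold change of -1.21 with an adjusted p of 0.00649. The sources used here do not say whether its probe lies in the deleted stretch. The level of a probe is the mean reference intensity of the 3 arrays headed C57BL6 scaled by the probe's ratios on the 6 arrays, in arbitrary units, with a median of 0.144 over all features. No intensity of an ApoE KO array was used, so levels and rounding steps given for ApoE KO arrays are that reference intensity times the array's ratio. Each array measured 39480 to 39551 probes, and precision is limited by there being 3 arrays per group.

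The promoters of these genes share sequence features that the choice of genes did not use, and a few are shown first. Windows from 250 bases before to 50 bases after the annotated start were taken from RefSeq (GRCm38.p6). Of the 52 genes, 42 had a window, 45 windows in all, since a gene can have several starts. The CHR, or cell cycle genes homology region, is the element bound by the MuvB complex and was searched as TTTGAA or TTCGAA. The CCAAT box is the NF-Y element and was searched as CCAAT. The E2F element was searched as TTTCGCGC, TTTGGCGC, TTTCCCGC or TTTGCCGC. Both strands were searched, and matches that overlap were each counted.

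Below are 4 windows of mitosis genes on the strand of the gene, 5′ to 3′, with the matched letters in capitals, chosen to show the CHR and CCAAT letters side by side. Cdca8 lies at chr4:124936868-124937167, Mki67 at chr7:135716330-135716629, Cdk1 at chr10:69352863-69353162 and Top2a at chr11:99024140-99024439, all on the minus strand. The last run of capitals in Cdca8 is a CHR match and a CCAAT match that share bases, and the second run of capitals in Cdk1 is an E2F match.
Cdca8: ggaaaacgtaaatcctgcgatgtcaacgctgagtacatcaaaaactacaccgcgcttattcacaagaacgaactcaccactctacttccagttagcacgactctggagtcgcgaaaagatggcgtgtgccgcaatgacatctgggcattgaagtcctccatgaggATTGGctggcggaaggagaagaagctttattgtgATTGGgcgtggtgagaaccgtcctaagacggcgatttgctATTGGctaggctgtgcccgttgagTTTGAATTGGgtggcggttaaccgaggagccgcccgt
Mki67: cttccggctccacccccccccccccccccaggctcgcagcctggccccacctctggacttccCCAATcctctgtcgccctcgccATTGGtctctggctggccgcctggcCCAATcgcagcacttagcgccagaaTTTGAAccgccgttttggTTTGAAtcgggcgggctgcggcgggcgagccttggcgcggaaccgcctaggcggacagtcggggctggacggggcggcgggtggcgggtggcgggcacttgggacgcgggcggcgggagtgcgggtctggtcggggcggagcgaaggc
Cdk1: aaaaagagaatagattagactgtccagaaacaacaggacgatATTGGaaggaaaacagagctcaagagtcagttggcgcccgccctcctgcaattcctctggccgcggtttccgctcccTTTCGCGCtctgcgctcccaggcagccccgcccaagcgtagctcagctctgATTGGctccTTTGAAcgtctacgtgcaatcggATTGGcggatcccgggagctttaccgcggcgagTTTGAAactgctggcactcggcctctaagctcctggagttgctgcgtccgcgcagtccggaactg
Top2a: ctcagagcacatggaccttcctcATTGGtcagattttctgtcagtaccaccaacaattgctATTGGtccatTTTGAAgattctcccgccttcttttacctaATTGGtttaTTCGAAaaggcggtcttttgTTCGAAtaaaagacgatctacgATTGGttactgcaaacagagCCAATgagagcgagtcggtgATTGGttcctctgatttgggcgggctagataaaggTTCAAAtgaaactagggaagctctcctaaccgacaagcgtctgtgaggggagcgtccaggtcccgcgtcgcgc

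The next windows are of the replication genes Mcm3 at chr1:20820263-20820562 and Mcm6 at chr1:128359656-128359955, both on the minus strand and shown in the same way, because they hold 2 and 3 E2F matches and no CHR match. The first run of capitals in Mcm6 is a pair of E2F matches on opposite strands that overlap. Its later run TTTGGCGC and the runs GCGGGAAA and TTTGGCGC at the right of Mcm3 are E2F matches too, and the runs CCAAT and ATTGG are CCAAT matches on either strand.
Mcm3: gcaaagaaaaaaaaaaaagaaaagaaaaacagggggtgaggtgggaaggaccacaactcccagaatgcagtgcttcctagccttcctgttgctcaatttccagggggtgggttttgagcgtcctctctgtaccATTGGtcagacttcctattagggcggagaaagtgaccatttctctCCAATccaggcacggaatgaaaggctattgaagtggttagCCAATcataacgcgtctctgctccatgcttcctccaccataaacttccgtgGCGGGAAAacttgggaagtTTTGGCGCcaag
Mcm6: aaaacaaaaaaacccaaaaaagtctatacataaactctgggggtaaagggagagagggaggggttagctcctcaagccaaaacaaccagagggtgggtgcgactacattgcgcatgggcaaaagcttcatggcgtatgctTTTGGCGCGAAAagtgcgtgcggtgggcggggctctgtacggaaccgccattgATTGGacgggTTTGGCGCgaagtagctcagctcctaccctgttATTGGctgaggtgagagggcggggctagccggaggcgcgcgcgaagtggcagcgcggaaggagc

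Among the 28 windows of mitosis genes, 23 held a CHR match (82.1%), against 19.2% of all 32851 windows of the table. A CCAAT match was in 25 of them (89.3%), against 37.4% of all windows, and both motifs stood in 82.1%, against 7.52%. Of the 14 windows of replication genes, 3 held a CHR match (21.4%) and 6 held an E2F match (42.9%), against 2.26% of all windows for E2F, and 10 held a CCAAT match (71.4%). The E2F letters were in 1 mitosis window (3.57%), that of Cdk1 shown above. Of the 3 G1/S windows none held a CHR match, and 1 held an E2F match and 1 a CCAAT match. A match is a description of letters and not a bound site. Set beside the calls given below, 15 of 19 windows of called mitosis genes held a CHR match, and so did 8 of 9 windows of mitosis genes that were not called. Of the replication windows, 2 of 8 of called genes and 4 of 6 of genes not called held an E2F match.

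**Figure D1:**
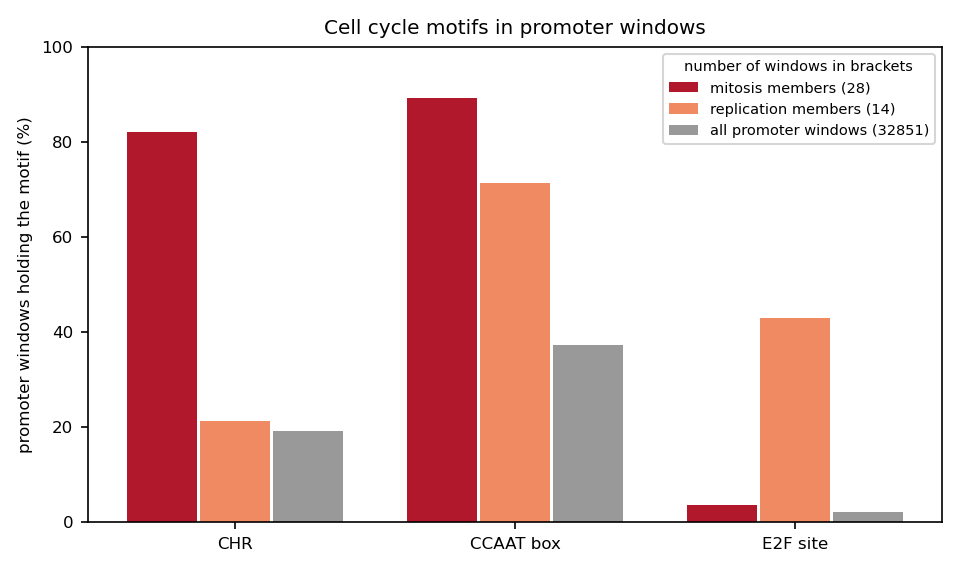
Share of promoter windows (250 bases before to 50 after the start, in percent) that hold a CHR, a CCAAT box or an E2F match, for 28 windows of mitosis genes, 14 of replication genes and all 32851 windows. The CHR bar of the mitosis genes stands at 82.1%, against 21.4% for replication genes, and the E2F bars stand at 3.57% for mitosis genes and 42.9% for replication genes.

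Proliferation transcripts were higher in the ApoE KO aortas by moderate amounts, and the mitosis genes had the largest median. Of the 52 genes, 33 rose (63.5%) and none fell, against 6.73% of all features called higher and 8.00% called lower. The median log2 fold change was 0.44 (1.36-fold) over the 52 genes and -0.020 over all features. All 3 ApoE KO arrays lay above all 3 WT arrays in 36 of the genes, against 11.0% of all features, and below them in 1, Kif23, against 18.4%, and the groups overlapped in 15. Only Mki67 rose by 2-fold or more, and 18 of the 52 genes had a fold change above 1.5. In bulk aorta, more cycling cells and more of these transcripts per cycling cell cannot be told apart.

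By stage of the cycle, 3 of 5 G1/S genes rose, with a median log2 fold change of 0.21 (1.16-fold) over the 5. Of the 15 replication genes, 9 rose and the median was 0.26 (1.20-fold). Of the 32 mitosis genes, 21 rose and the median was 0.55 (1.46-fold). On ApoE KO replicates 1, 2 and 3 the median log2 ratio of the mitosis genes was 0.60, 0.47 and 0.46, against 0.00, 0.00 and -0.021 on WT replicates 1, 2 and 3. The replication genes had medians of 0.32, 0.20 and 0.32 in ApoE KO arrays, against 0.00, 0.00 and -0.039 in WT arrays. The G1/S genes had 0.22, 0.18 and 0.19 in ApoE KO arrays, against 0.00, -0.005 and -0.041 in WT arrays. The medians of the 3 knockout arrays were above those of the 3 wild type arrays at each stage. The difference between stages was not tested. After quantile normalization the medians were 0.19 for G1/S, 0.13 for replication and 0.36 for mitosis, and 15 of the 52 genes were called, none of them of G1/S. Over the genes with a level of at least 0.5 the medians were 0.21 for 3 G1/S genes, 0.56 for 6 replication genes and 0.68 for 5 mitosis genes. Among these 5 mitosis genes is Ccna2, whose level of 0.516 takes in its rise in ApoE KO arrays.

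**Figure D2:**
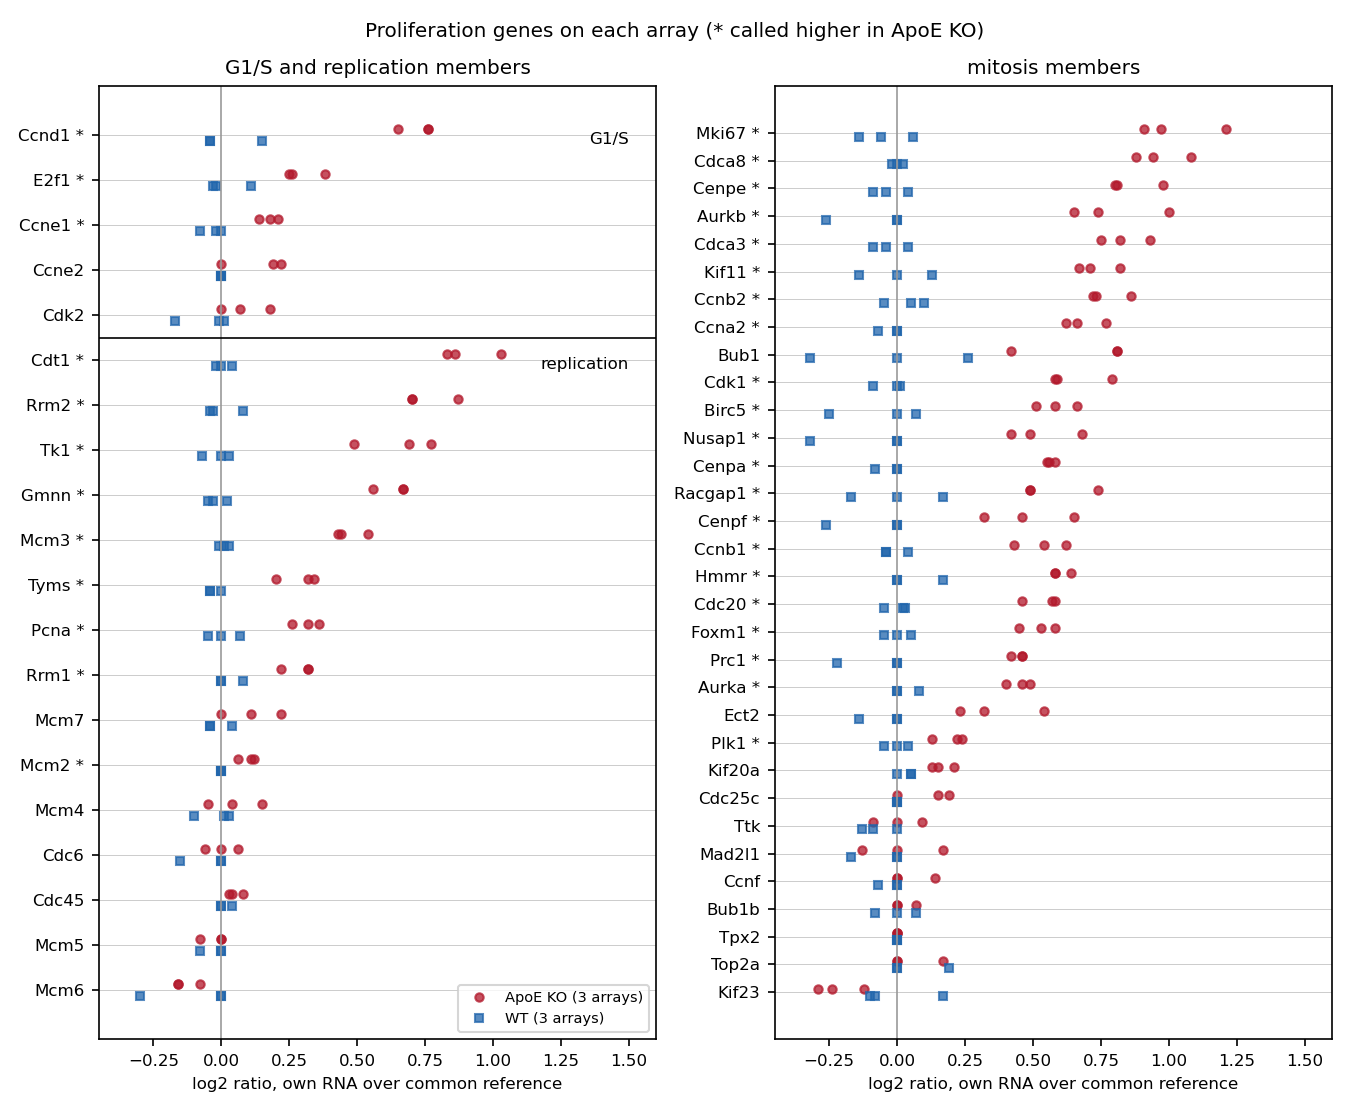
Log2 ratio of own RNA to the common reference (horizontal axis) of each of the 52 genes on the 3 ApoE KO arrays (circles) and the 3 WT arrays (squares), with G1/S and replication genes on the left and mitosis genes on the right, ordered by fold change. Circles lie to the right of all squares in 36 genes, among them Mki67 with 0.91 to 1.21 in ApoE KO arrays, and the groups overlap in 15, among them Tpx2, which was at 0 on every array.

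The arrays of a group were not alike for these genes. ApoE KO replicate 1 was the highest knockout array in 35 of the 52 genes (67.3%), against 21.7% of all features and 33.9% of features with a level of at least 0.5. WT replicate 3 was the lowest wild type array in 27 of 52 (51.9%), against 25.4% of all features and 49.2% at that level. Without ApoE KO replicate 1, 22 of the 52 genes were called higher, and without WT replicate 3, 27. Among the 22 macrophage markers ApoE KO replicate 1 was highest in 9 and replicate 2 in 11. Their medians on ApoE KO replicates 1, 2 and 3 were 1.548, 1.571 and 1.555, too close to give an order to compare. In the lists of other replication and other mitosis genes described below, ApoE KO replicate 1 was highest in 25 of 36 and in 40 of 54 genes.

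G1/S regulators were the smallest set, and cyclin D1 had the largest fold change among them. Ccnd1, which encodes cyclin D1, the cyclin induced by growth factors in early G1, had log2 ratios of 0.76, 0.65 and 0.76 in ApoE KO aortas, against 0.15, -0.04 and -0.04 in WT aortas, a log2 fold change of 0.70 ± 0.068 (1.63-fold, adjusted p 0.00507). E2f1, an activating E2F factor, had 0.25, 0.38 and 0.26 in ApoE KO aortas, against -0.03, -0.02 and 0.11 in WT aortas, a log2 fold change of 0.28 ± 0.055 (adjusted p 0.0392). Ccne1, encoding cyclin E1, the partner of CDK2 at the start of S phase, had 0.21, 0.18 and 0.14 in ApoE KO aortas, against -0.02, 0.00 and -0.08 in WT aortas, a log2 fold change of 0.21 ± 0.030 (adjusted p 0.0155). In these 3 genes the groups did not overlap. Cdk2, the kinase that cyclin E activates, had 0.18, 0.00 and 0.07 in ApoE KO aortas, against 0.01, -0.01 and -0.17 in WT aortas, and its groups overlapped (log2 fold change 0.14, 95% interval -0.053 to 0.33, adjusted p 0.289). Ccne2, the second cyclin E, had 0.22, 0.00 and 0.19 in ApoE KO aortas, against 0.00, 0.00 and 0.00 in WT aortas (log2 fold change 0.14, 95% interval -0.035 to 0.31, adjusted p 0.254). Quantile normalization ended all 3 calls (adjusted p 0.295 for Ccnd1, 0.249 for E2f1 and 0.0634 for Ccne1). So did leaving out 1 array for E2f1 (any but WT replicate 3, adjusted p up to 0.126) and for Ccne1 (ApoE KO replicate 1 or 2 or WT replicate 1, up to 0.0589).

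In the licensing of replication origins, the loading factor and its inhibitor rose, and 4 of the 6 subunits of the helicase were not called. Cdt1, which loads the MCM helicase onto origins, had log2 ratios of 1.03, 0.86 and 0.83 in ApoE KO aortas, against 0.00, -0.02 and 0.04 in WT aortas, a log2 fold change of 0.90 ± 0.060 (1.87-fold, adjusted p 0.00189). Gmnn, encoding geminin, which binds CDT1 and blocks a second round of licensing, had 0.67, 0.56 and 0.67 in ApoE KO aortas, against 0.02, -0.03 and -0.05 in WT aortas, a log2 fold change of 0.66 ± 0.039 (1.58-fold, adjusted p 0.00144). Both were far above the wild type spread on every knockout array.

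The MCM helicase is a ring of 6 different subunits, Mcm2 to Mcm7, of which 2 rose, and the median log2 fold change of the 6 was 0.079. Mcm3 had log2 ratios of 0.54, 0.44 and 0.43 in ApoE KO aortas, against 0.01, 0.03 and -0.01 in WT aortas, a log2 fold change of 0.46 ± 0.036 (1.38-fold, adjusted p 0.0028). Mcm2 had 0.12, 0.06 and 0.11 in ApoE KO aortas, against 0.00, 0.00 and 0.00 in WT aortas, a log2 fold change of 0.095 ± 0.017 (adjusted p 0.0313), and its group means were 1.5 rounding steps apart on a dim probe. Leaving out 1 array ended the call of Mcm2, for any array but ApoE KO replicate 2 (adjusted p up to 0.108). Mcm4 had 0.15, -0.05 and 0.04 in ApoE KO aortas, against 0.03, 0.01 and -0.10 in WT aortas, so its groups overlapped (log2 fold change 0.063, 95% interval -0.11 to 0.24, adjusted p 0.542). Mcm7 had 0.22, 0.11 and 0.00 in ApoE KO aortas, against 0.04, -0.04 and -0.04 in WT aortas (log2 fold change 0.12, 95% interval -0.045 to 0.29). The fold changes of Mcm5 and Mcm6 were 0.001 and -0.035, and both were dim. The interval of Mcm4 lay below that of Mcm3, which ran over 0.36 to 0.56, but the difference between subunits was not tested.

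The other loading and firing factors of the set, Cdc6 and Cdc45, did not pass the test. Further factors of licensing and firing, some of them called, belong to the separate list of other replication genes described below. Cdc6, which recruits the helicase together with CDT1, had 0.06, 0.00 and -0.06 in ApoE KO aortas, against 0.00, 0.00 and -0.15 in WT aortas (log2 fold change 0.052, 95% interval -0.10 to 0.20). Cdc45, which joins the helicase when an origin fires, had 0.08, 0.04 and 0.03 in ApoE KO aortas, against 0.00, 0.00 and 0.04 in WT aortas (log2 fold change 0.037, 95% interval -0.011 to 0.084). In all, 4 of the 10 genes of licensing and initiation in the set rose, with a median log2 fold change of 0.079.

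The 4 genes of nucleotide supply and the sliding clamp gene Pcna all rose, with a median log2 fold change of 0.31 over the 5. Rrm2, the S phase subunit of ribonucleotide reductase, had log2 ratios of 0.87, 0.70 and 0.70 in ApoE KO aortas, against 0.08, -0.03 and -0.04 in WT aortas, a log2 fold change of 0.75 ± 0.063 (1.69-fold, adjusted p 0.00342). Rrm1, the large subunit of the same enzyme, had 0.32, 0.22 and 0.32 in ApoE KO aortas, against 0.08, 0.00 and 0.00 in WT aortas, a log2 fold change of 0.26 ± 0.041 (adjusted p 0.0195). Both subunits were higher on every knockout array, and the fold of Rrm2 was the larger.

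Tk1, the thymidine kinase of S phase, had log2 ratios of 0.77, 0.69 and 0.49 in ApoE KO aortas, against 0.00, 0.03 and -0.07 in WT aortas, a log2 fold change of 0.66 ± 0.082 (adjusted p 0.0101). Tyms, thymidylate synthase, had 0.32, 0.20 and 0.34 in ApoE KO aortas, against 0.00, -0.04 and -0.04 in WT aortas, a log2 fold change of 0.31 ± 0.042 (adjusted p 0.0127). Pcna, the clamp that holds DNA polymerase on its template, had 0.36, 0.26 and 0.32 in ApoE KO aortas, against 0.00, 0.07 and -0.05 in WT aortas, a log2 fold change of 0.30 ± 0.043 (1.23-fold, adjusted p 0.0155). Quantile normalization ended the calls of Pcna (adjusted p 0.386), Rrm1 (0.464) and Rrm2 (0.0784). Leaving out 1 array ended those of Pcna (ApoE KO replicate 1 or 3 or WT replicate 1, up to 0.0691), Rrm1 (ApoE KO replicate 1 or 3 or WT replicate 2 or 3, up to 0.0786) and Tyms (ApoE KO replicate 1 or WT replicate 2, up to 0.0581).

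**Figure D3:**
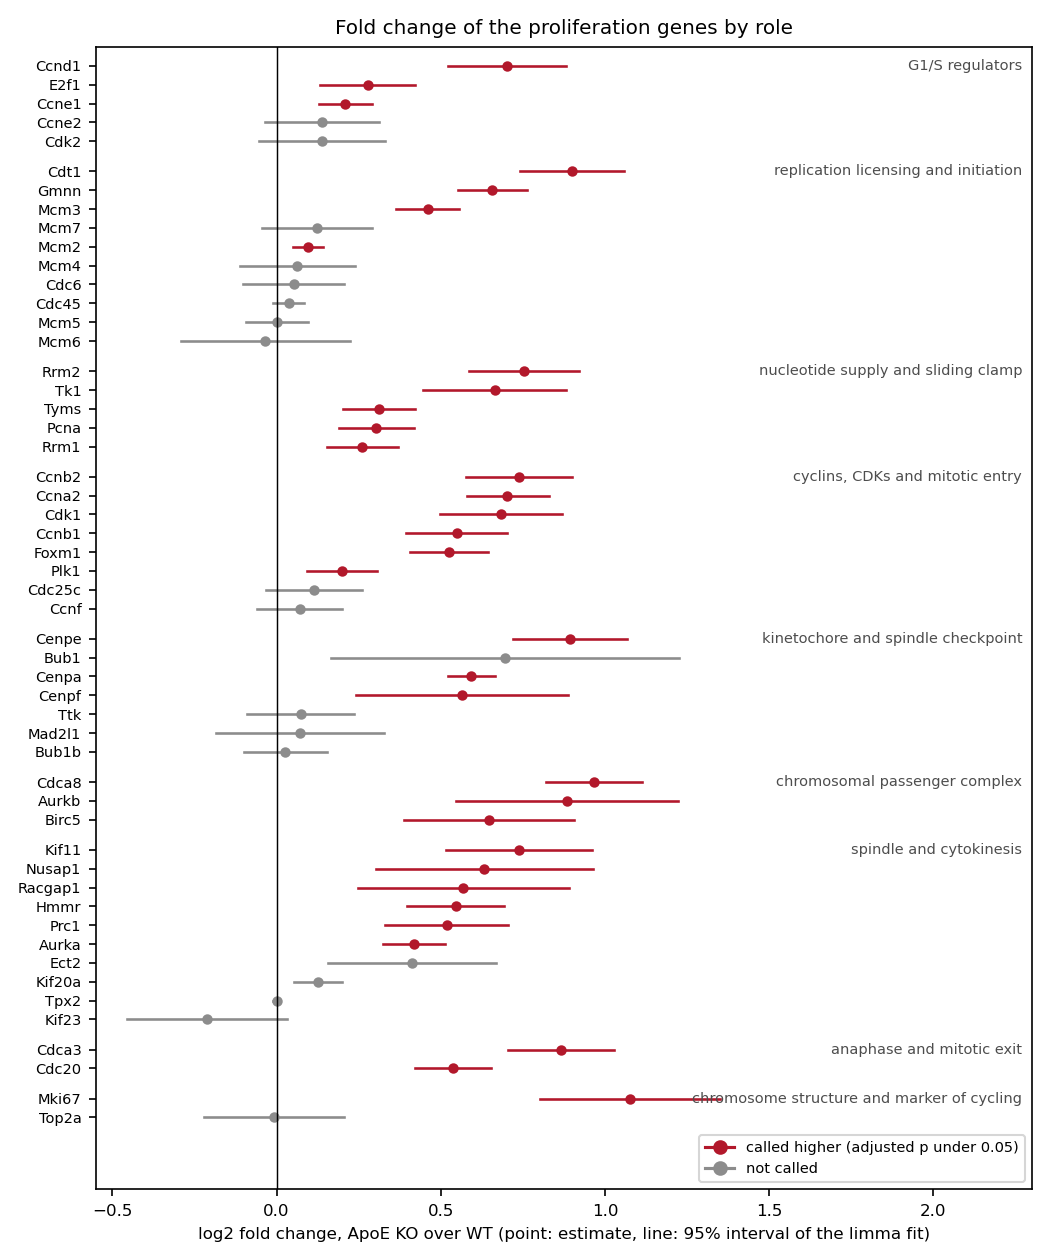
Log2 fold change, ApoE KO over WT, of the 52 genes by role, with the 95% interval of the limma fit as a line and called genes in red. All 5 genes of nucleotide supply and the clamp and all 3 of the chromosomal passenger complex are red, and 6 of the 10 licensing and initiation genes are grey.

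The kinase that drives mitotic entry rose with its cyclins, and 6 of the 8 genes of this role were called, with a median log2 fold change of 0.54. Cdk1, the mitotic kinase, had log2 ratios of 0.79, 0.58 and 0.59 in ApoE KO aortas, against 0.00, 0.01 and -0.09 in WT aortas, a log2 fold change of 0.68 ± 0.070 (1.61-fold, adjusted p 0.00589). Ccna2, encoding cyclin A2, had 0.77, 0.66 and 0.62 in ApoE KO aortas, against 0.00, 0.00 and -0.07 in WT aortas, a log2 fold change of 0.70 ± 0.047 (1.63-fold, adjusted p 0.00192). Both genes were higher on every knockout array than on any wild type array.

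Ccnb2, encoding cyclin B2, had log2 ratios of 0.86, 0.72 and 0.73 in ApoE KO aortas, against 0.05, -0.05 and 0.10 in WT aortas, a log2 fold change of 0.74 ± 0.061 (1.67-fold, adjusted p 0.00327). Ccnb1, encoding cyclin B1, had 0.62, 0.54 and 0.43 in ApoE KO aortas, against 0.04, -0.04 and -0.04 in WT aortas, a log2 fold change of 0.55 ± 0.058 (1.46-fold, adjusted p 0.00642). Foxm1, the transcription factor of the mitotic gene wave, had 0.58, 0.53 and 0.45 in ApoE KO aortas, against 0.00, 0.05 and -0.05 in WT aortas, a log2 fold change of 0.52 ± 0.045 (1.44-fold, adjusted p 0.00361). The groups did not overlap in any of these. Plk1, the Polo-like kinase of mitotic entry and the spindle, had 0.22, 0.24 and 0.13 in ApoE KO aortas, against -0.05, 0.04 and 0.00 in WT aortas, a smaller log2 fold change of 0.20 ± 0.040 (adjusted p 0.0408). Ccnf, encoding cyclin F, the substrate receptor of a ubiquitin ligase, had 0.00, 0.14 and 0.00 in ApoE KO aortas, against 0.00, 0.00 and -0.07 in WT aortas and was not called (95% interval -0.059 to 0.20). Quantile normalization ended the calls of Ccnb1 (adjusted p 0.0749), Ccnb2 (0.0589), Foxm1 (0.0521) and Plk1 (0.453), and leaving out any array but ApoE KO replicate 3 ended that of Plk1 (up to 0.138).

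At the kinetochore, the protein assembly that ties chromosomes to the spindle, the structural and motor genes rose and those of the checkpoint kinases and Mad2l1 were not called. Of the 7 genes 3 rose. Cenpe, the kinesin of the kinetochore, had log2 ratios of 0.98, 0.81 and 0.80 in ApoE KO aortas, against 0.04, -0.04 and -0.09 in WT aortas, a log2 fold change of 0.89 ± 0.066 (1.86-fold, adjusted p 0.00244). Cenpa, the histone H3 variant that marks the centromere, had 0.56, 0.55 and 0.58 in ApoE KO aortas, against 0.00, -0.08 and 0.00 in WT aortas, a log2 fold change of 0.59 ± 0.027 (1.51-fold), and its adjusted p of 0.000873 was the lowest among the 52 genes. The SD of Cenpa over the 3 knockout arrays was 0.016, the smallest among the called genes. At its level of 0.193 values move in coarse rounding steps, so this SD is no measure of precision.

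Cenpf, a large outer kinetochore protein, had 0.65, 0.32 and 0.46 in ApoE KO aortas, against 0.00, 0.00 and -0.26 in WT aortas, a log2 fold change of 0.56 ± 0.12 (adjusted p 0.0484). Bub1, a checkpoint kinase, had 0.81, 0.42 and 0.81 in ApoE KO aortas, against 0.26, -0.32 and 0.00 in WT aortas, a log2 fold change of 0.70 ± 0.20 that was not called (adjusted p 0.0974). The groups of Bub1 did not overlap, but its probe was dim, with a level of 0.0538, and its wild type values had an SD of 0.29. The fold changes of the other checkpoint genes, Bub1b, Mad2l1 and Ttk, were 0.026, 0.072 and 0.073, with overlapping groups. The call of Cenpf was lost after quantile normalization (adjusted p 0.114), with a trend and robust variances (0.0586), and without any 1 of the 6 arrays (0.0656 to 0.150).

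The chromosomal passenger complex corrects faulty attachments and later controls cytokinesis. Its 3 genes in the set all rose, with a median log2 fold change of 0.88. Cdca8, encoding borealin, had log2 ratios of 1.08, 0.94 and 0.88 in ApoE KO aortas, against 0.00, -0.02 and 0.02 in WT aortas, a log2 fold change of 0.97 ± 0.055 (1.96-fold, adjusted p 0.00133). Aurkb, its kinase aurora B, had 1.00, 0.65 and 0.74 in ApoE KO aortas, against 0.00, 0.00 and -0.26 in WT aortas, a log2 fold change of 0.88 ± 0.13 (1.85-fold, adjusted p 0.0161). Birc5, encoding survivin, had 0.66, 0.51 and 0.58 in ApoE KO aortas, against 0.07, 0.00 and -0.25 in WT aortas, a log2 fold change of 0.65 ± 0.098 (1.56-fold, adjusted p 0.0182). ApoE KO replicate 1 was highest in all 3 genes, and the groups did not overlap. The call of Cdca8 held in all alternatives, the restricted fit among them. Leaving out 1 array ended the calls of Aurkb (ApoE KO replicate 3 or WT replicate 1 or 2, adjusted p up to 0.0621) and Birc5 (any ApoE KO array or WT replicate 2, up to 0.0768), and quantile normalization that of Birc5 (0.181). Incenp, a further subunit of the complex, belongs to the separate list of other mitosis genes. It rose less, with a log2 fold change of 0.53 (adjusted p 0.006) on a brighter probe with a level of 2.79. Its call in the alternatives is not given here.

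Among the 10 genes of the spindle and cytokinesis, 6 rose and the median log2 fold change was 0.47. Kif11, the kinesin that pushes the spindle poles apart, had log2 ratios of 0.82, 0.71 and 0.67 in ApoE KO aortas, against 0.13, 0.00 and -0.14 in WT aortas, a log2 fold change of 0.74 ± 0.084 (1.67-fold, adjusted p 0.00786). Aurka, aurora A, the kinase of the spindle poles, had 0.49, 0.46 and 0.40 in ApoE KO aortas, against 0.00, 0.00 and 0.08 in WT aortas, a log2 fold change of 0.42 ± 0.036 (1.34-fold, adjusted p 0.00361). Hmmr, a microtubule-binding protein and hyaluronan receptor, had 0.64, 0.58 and 0.58 in ApoE KO aortas, against 0.00, 0.17 and 0.00 in WT aortas, a log2 fold change of 0.55 ± 0.056 (1.46-fold, adjusted p 0.00588). In each of these the lowest knockout value was above the highest wild type value.

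Prc1, which bundles microtubules in the midzone of the anaphase spindle, had 0.46, 0.42 and 0.46 in ApoE KO aortas, against 0.00, 0.00 and -0.22 in WT aortas, a log2 fold change of 0.52 ± 0.071 (adjusted p 0.0135). Racgap1, part of the centralspindlin complex of cytokinesis, had 0.74, 0.49 and 0.49 in ApoE KO aortas, against 0.17, 0.00 and -0.17 in WT aortas, a log2 fold change of 0.57 ± 0.12 (adjusted p 0.0472). Nusap1, a protein that stabilises spindle microtubules, had 0.68, 0.42 and 0.49 in ApoE KO aortas, against 0.00, 0.00 and -0.32 in WT aortas, a log2 fold change of 0.63 ± 0.12 (adjusted p 0.0381). These 3 probes were dim, and their group means were 3.1, 4.2 and 2.7 rounding steps apart. Quantile normalization ended the calls of Kif11 (adjusted p 0.203), Hmmr (0.453), Prc1 (0.0646), Racgap1 (0.544) and Nusap1 (0.127). Leaving out 1 array ended those of Racgap1 and Nusap1 whichever array it was (0.0595 to 0.137 and 0.0517 to 0.121) and that of Prc1 for ApoE KO replicate 1 or 3 (up to 0.0629), and a trend with robust variances that of Racgap1 (0.0571).

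The other spindle and cytokinesis genes were not called. Ect2, the exchange factor that activates RhoA in cytokinesis, had 0.54, 0.23 and 0.32 in ApoE KO aortas, against 0.00, 0.00 and -0.14 in WT aortas (log2 fold change 0.41, adjusted p 0.0596), with no overlap. Kif20a, a kinesin of the midzone, had 0.21, 0.15 and 0.13 in ApoE KO aortas, against 0.00, 0.05 and 0.05 in WT aortas (log2 fold change 0.13, adjusted p 0.0519), also without overlap. Kif23, the kinesin partner of RACGAP1 in centralspindlin, went the other way, with -0.29, -0.12 and -0.24 in ApoE KO aortas, against -0.10, -0.08 and 0.17 in WT aortas (log2 fold change -0.21, 95% interval -0.46 to 0.032, adjusted p 0.247). Its probe is named after an expressed sequence tag and was bright, with a level of 8.9. Tpx2, an activator of aurora A, was at 0 on all arrays, on a dim probe with a level of 0.060.

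At the end of mitosis, Cdc20, the activator of the anaphase-promoting complex, had log2 ratios of 0.58, 0.57 and 0.46 in ApoE KO aortas, against 0.02, -0.05 and 0.03 in WT aortas, a log2 fold change of 0.54 ± 0.044 (1.45-fold, adjusted p 0.00326). Cdca3, a trigger of mitotic entry that is degraded on exit, had 0.93, 0.82 and 0.75 in ApoE KO aortas, against -0.04, 0.04 and -0.09 in WT aortas, a log2 fold change of 0.87 ± 0.061 (1.82-fold, adjusted p 0.00217). Mki67, which encodes the Ki-67 antigen used to count cycling cells, had the highest fold of the 52 genes, with 1.21, 0.91 and 0.97 in ApoE KO aortas, against 0.06, -0.06 and -0.14 in WT aortas, a log2 fold change of 1.07 ± 0.10 (2.11-fold, adjusted p 0.00489). All 3 were above every wild type array. Top2a, the topoisomerase that untangles replicated chromosomes, had 0.00, 0.17 and 0.00 in ApoE KO aortas, against 0.19, 0.00 and 0.00 in WT aortas, a log2 fold change of -0.008 with a 95% interval of -0.22 to 0.20, on a dim probe where 1 rounding step is a large part of the signal. Cdc25c, a phosphatase that activates CDK1, had a log2 fold change of 0.12 with overlapping groups. The call of Cdc20 was lost after quantile normalization (adjusted p 0.0554).

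A second probe was present for 3 of the genes, and it did not show the rise of the brighter one. The second Aurka probe gave a log2 fold change of -0.11 (adjusted p 0.497 over 39362 probes), and averaging both probes ended the call of Aurka (0.136). The second Ccnb1 probe was at 0 on all arrays. The second Rrm2 probe had -0.17, -0.19 and -0.18 in ApoE KO aortas, against -0.10, 0.00 and 0.00 in WT aortas, a log2 fold change of -0.15 (adjusted p 0.0507). All 3 second probes were dimmer than the first.

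The brightness of a probe limits its precision. The deposited intensities were written in steps of 0.01, so dim probes move in coarse steps. Of the 33 called genes, 25 had group means at least 5 rounding steps apart and 8 fewer. Of the 14 genes with a level of at least 0.5, 11 rose in the fit over all features. In a fit restricted to the 9034 features at that level the same count of 11 was called higher (adjusted p 1.27e-05 for Cdca8 to 0.00599 for Ccne1), against 19.0% of those features. The level takes in the ApoE KO ratios, so a rise there can lift a gene over the cut. Ccna2, with a level of 0.516, was just over it, and its place among the 14 and the 11 may rest on its rise. Cdk2 (adjusted p 0.125), Mcm4 (0.429) and Kif23 (0.0659) were not called in the restricted fit. The calls of 11 of the 33 genes held in each alternative in which they were tested: Cdt1, Gmnn, Mcm3, Tk1, Ccna2, Cdk1, Cdca3, Cdca8, Cenpa, Cenpe and Mki67. Tk1, Cdca3, Cenpa, Cenpe and Mki67 had a level under 0.5 and were not in the restricted fit.

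**Figure D4:**
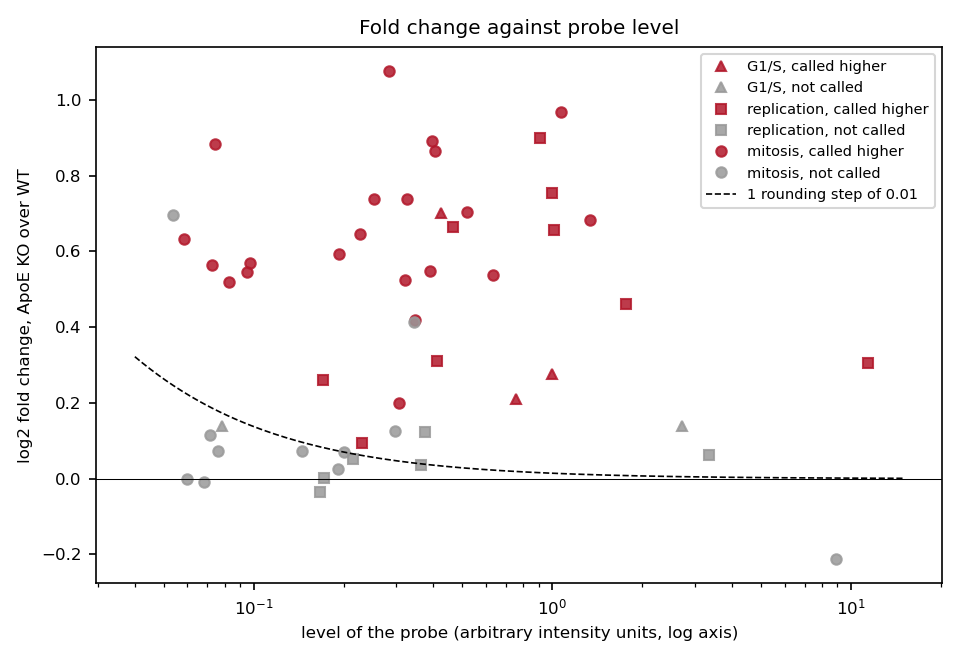
Log2 fold change, ApoE KO over WT (vertical axis), against the level of each gene's probe (arbitrary intensity units, log axis), by stage and call; the dashed line is the log2 change that 1 rounding step of 0.01 makes. Fold changes of 0.5 to 1.1 occur from the dimmest probes to a level of 1.34 (Cdk1), and grey points near the line are genes whose groups differ by about 1 step. The level of a probe is not an amount of transcript and is not compared between genes.

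Other genes of the same pathways, on lists that hold none of the 52, moved in part in the same direction. The shares over all features were 6.73% called higher and 8.00% called lower. Among 54 other mitosis genes, 30 rose and 3 fell, with a median log2 fold change of 0.33. The lowest p-values among those that rose were those of Kif22, a chromosome-arm kinesin (0.84, adjusted p 0.00141), Stmn1, the tubulin-binding stathmin (0.53), Nuf2, a kinetochore subunit (0.80), and Lmnb1, lamin B1 (0.49). The 3 that fell were Pttg1, encoding securin (-0.38), Kif4, a chromosome-bound kinesin (-0.12), and Anln, the actin-binding anillin of the cleavage furrow (-0.52). For Kif4 the ApoE KO mean differed from the WT mean by only -1 rounding step, on a dim probe. Quantile normalization ended these 3 calls (adjusted p 0.0766, 0.204 and 0.219), as did leaving out WT replicate 1 or 2 for Kif4 (up to 0.0541) and any array but WT replicate 3 for Anln (up to 0.156), and a trend with robust variances ended the call of Anln (0.0556).

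Among 36 other replication genes, 12 rose and 2 fell, with a median log2 fold change of 0.045. Those with the lowest p-values were Dbf4, the activator of the origin-firing kinase CDC7, with 1.04, 0.92 and 0.96 in ApoE KO aortas, against 0.04, -0.04 and -0.04 in WT aortas (0.99, adjusted p 0.00074), Asf1b, a histone chaperone (0.66), Uhrf1, which keeps DNA methylation through replication (0.98), and Gins2, a helicase cofactor (0.31). Prim1, the primase subunit, was lower (-0.30), and so was Rpa2, of the protein that coats single strands (-0.17). Quantile normalization ended these decreases (adjusted p 0.115 and 0.124), as did leaving out 1 array (WT replicate 1 or 2 for Prim1, up to 0.0539, and ApoE KO replicate 1 or any WT array for Rpa2, up to 0.0724).

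Of 16 other G1 cyclins, CDKs and E2F factors, 5 rose and 1 fell, with a median of 0.056. Myc, a growth-promoting transcription factor (0.44), E2f2, an activating E2F (1.01), Cdk6, a partner of D cyclins (0.55), and E2f8, a repressing E2F (0.56), had the lowest p-values, while Ccnd3, encoding cyclin D3, was lower (-0.36). Quantile normalization ended these calls except that of Myc (adjusted p 0.0801 to 0.269), and leaving out any array but ApoE KO replicate 2 ended that of Ccnd3 (up to 0.121). Cyclin D1 and cyclin D3 thus had opposite signs, with log2 fold changes of 0.70 and -0.36. Of 20 CDK inhibitors and pocket proteins, which restrain the cycle, 3 rose and none fell, with a median of 0.050. Over all features 6.73% were called higher, and 14.3% of those with a level of at least 0.5, which 12 of the 20 had. The count of 3 is near that share and is no result about the list. The 3 genes were Rbl1, encoding the pocket protein p107 (0.67), Cdkn2c, an inhibitor of CDK4 and CDK6 (0.43), and Gadd45a, a stress-induced growth arrest gene (0.64). Quantile normalization ended the calls of Cdkn2c (0.0634) and Gadd45a (0.536), and leaving out ApoE KO replicate 3 or WT replicate 2 or 3 that of Gadd45a (up to 0.0841).

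Markers of other cells moved between the same arrays. Over all features 6.73% were called higher and 8.00% lower, and 14.3% of those with a level of at least 0.5 were called higher. Counts of 1 or 2 calls in a list of 8 to 10 genes are too few to set apart from these shares. Of 22 macrophage markers, 18 rose, with a median log2 fold change of 1.48, and their summed level was 302 to 352 in ApoE KO arrays and 73 to 92 in WT arrays. Of 10 smooth muscle markers, 7 fell, with a median of -0.62 and a summed level of 389 to 443 in ApoE KO arrays and 645 to 692 in WT arrays. None of 12 T, B and NK cell markers passed the test, and their summed level was 4.12 to 4.67 in ApoE KO arrays and 4.07 to 4.34 in WT arrays. Only 2 of these 12 had a level of at least 0.5, so dim probes limit what this list can show. Of 8 fibroblast markers, Lum and Col1a1 rose (1.76 and 0.51) and Serpinf1 fell (-0.46), with a median of 0.058 and a summed level of 266 to 293 in ApoE KO arrays and 147 to 167 in WT arrays. The group means of Lum were 9412.7 rounding steps apart and those of Col1a1 2475.5, so Lum weighs most in this difference. Of the 8 fold changes 4 were positive. In each list the summed level is weighted to bright probes and is not an amount of transcript. Of 10 endothelial markers, Vwf and Sox17 rose (0.47 and 0.53), with a median of 0.17 and a summed level of 25.4 to 27.8 in ApoE KO arrays and 23.6 to 26.1 in WT arrays. Quantile normalization ended the calls of Col1a1 (adjusted p 0.122), Serpinf1 (0.22), Vwf (0.62) and Sox17 (0.0526). Leaving out 1 array ended those of Serpinf1 (ApoE KO replicate 1 or 3 or WT replicate 1 or 3, up to 0.121) and Vwf (ApoE KO replicate 1 or 2 or WT replicate 2, up to 0.0649). Of 8 fat cell markers 1 fell, Lep (-0.14), with a median of -0.052 and a summed level of 40.2 to 46.4 in ApoE KO arrays and 34.4 to 43.9 in WT arrays. The ApoE KO mean of Lep differed from the WT mean by -0.9 rounding steps on a dim probe, which is within the rounding. Of 8 measured markers of blood cell precursors 1 rose, Hba-a1 (0.63), with a median of 0.15 and a summed level of 138 to 183 in ApoE KO arrays and 97.5 to 113 in WT arrays. Heart muscle markers differed between arrays of a group, with medians of -0.59, 0.30 and 0.70 in ApoE KO arrays and 0.00, -0.71 and 0.00 in WT arrays, and 1 of 9 was called, Nppa (0.46). Leaving out any array but ApoE KO replicate 1 ended the calls of Hba-a1 (adjusted p up to 0.143) and Nppa (up to 0.141), and quantile normalization that of Nppa (0.105). A trend with robust variances ended both (0.0511 for Hba-a1 and 0.0591 for Nppa), as did averaging probes (0.0567 and 0.0501). The part of these cells in the proliferation result was not tested. No marker was at 0 in level in any of these lists, but a level above 0 does not mean that a marker was well measured.

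**Figure D5:**
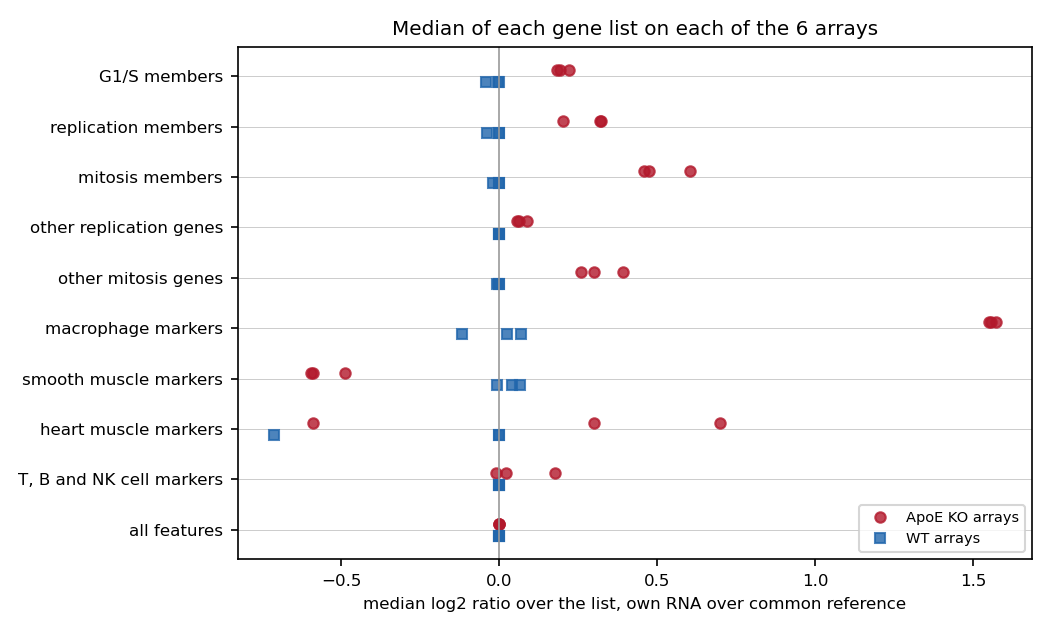
Median log2 ratio to the common reference over each gene list (horizontal axis) on the 3 ApoE KO arrays (circles) and the 3 WT arrays (squares). The mitosis genes lie at 0.46 to 0.60 in ApoE KO arrays, the macrophage markers at 1.55 to 1.57 and the smooth muscle markers at -0.60 to -0.49, and the heart muscle markers overlap between the groups.

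Genes for growth factors and their receptors of macrophages and vessels were called in part. Of 18, 5 rose and none fell, against 6.73% of all features called higher and 8.00% called lower. A level of at least 0.5 was reached by 11 of the 18, and 14.3% of all features at that level were called higher. Csf1r is also counted among the macrophage markers above. The median log2 fold change of the 18 was 0.13. Spp1, encoding osteopontin, rose by 2.44 (5.44-fold), Csf2ra, a receptor chain for GM-CSF, by 1.52, Igf1 by 1.31, and Csf1r, the receptor for M-CSF, was 2.15-fold higher. These calls held after quantile normalization and without any 1 array.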

How the data were processed

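RNA of 3 ApoE KO and 3 WT aortas was hybridised to 2-colour Agilent arrays, with groups taken from the genotype label of the aorta's own channel and replicate numbers from the titles. Per the labels' protocols, 100 ng of Trizol-extracted RNA was amplified in 2 rounds, and the submitters' processing notes name Agilent Feature Extraction 8.5.1.1. The sources used here give no background correction or dye normalization. In the deposited value table each number is a log10 ratio, with the aorta's RNA above and the shared reference below. The authors' second deposited table holds an intensity of the aorta's own RNA and, for the reference, a score in the same scaled units, by a scaling that is not stated. For 100.0% of 39485 probes the deposited ratios of the WT arrays equalled those of these intensities within 0.002 on the log10 scale. That table has 18 columns of per-sample values, and 12 of them were left aside, since their headings name no group or they hold p-values. The direction of the ApoE KO ratios rests on their dye labels.

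Ratios were converted to log2, 194 probes lacking a value on some array were dropped, and symbols came from a table of mouse RefSeq genes (GRCm38.p6). The probe of the highest level stood for a gene, which gave 35028 features, 36.1 to 58.8% of whose probes' ratios were exactly 0 on an array. Groups were compared with lmFit and eBayes (limma 3.58.1, R 4.3.3), without a block, two-sided, at a Benjamini-Hochberg adjusted p under 0.05. Tested on simulated arrays with the same rounding, the fit over all features made many more false calls than its threshold allows. The fit restricted to features with a level of at least 0.5 stayed near that threshold. The 33 calls come from the fit over all features, 22 of them on genes under that level. The simulated noise was drawn from WT arrays at that level, and only such features were changed. It therefore gives no false call rate for dim genes or for the spread of ApoE KO arrays. Named were all called genes, those not called with a log2 fold change of at least 0.5 in size, and up to the 4 brightest others per stage. From each pathway list up to 4 called genes were named in order of p, and also the genes called lower where these were 5 or fewer. Other genes not called that are named (Top2a, Tpx2, Cdc25c, Bub1b, Mad2l1, Ttk, Mcm5 and Mcm6) were chosen after their values were seen, as were Incenp and genes named for a decrease. Members, lists and tests were chosen with earlier results of these data known. The replicate numbers of the titles did not pair the arrays: same-numbered deviations from the group means correlated at 0.078, -0.469 and -0.145 over 9034 features. Differently numbered arrays correlated at 0.614 (ApoE KO replicate 2 with WT replicate 3), 0.483 (1 with 2) and 0.347 (3 with 1). All other pairs ran from -0.469 to 0.078. With 3 arrays per group these correlations depend on one another, and a source shared across the groups was not tested. Alternatives were quantile normalization, another centring, filters on level, the mean of probes, a trend with robust variances, array weights, a replicate block and leaving out each array. One gene, Ube2c, is not reported here.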

Additional observations from a re-analysis of the deposited data

How the results depend on the processing

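None of the 52 genes was called lower in any setting, and none of the 34 named ones (33 called genes and Bub1) changed sign. The 33 higher genes became 15 after quantile normalization, 11 of the 14 with a level of at least 0.5, and 22 to 27 without 1 array. The 21 mitosis genes became 9, 4 and 15 to 17 in these settings, the 9 replication genes 6, 5 and 5 to 9, and the 3 G1/S genes 0, 2 and 1 to 3. Over all features 2357 were higher and 2801 lower, against 871 and 780 after quantile normalization, and 1718 to 2075 and 1798 to 2826 without 1 array. The mitosis median of 0.547 was 0.357 after quantile normalization, 0.683 at that level and 0.507 to 0.575 without 1 array. The replication median of 0.261 was 0.128, 0.558 and 0.245 to 0.294 in the same settings. The G1/S median of 0.209 was 0.185 after quantile normalization, 0.231 with another centring, 0.243 with the dimmest features left out and 0.187 to 0.230 without 1 array. The cause was not tested, except that filters on level test fewer genes. With the replicate block, although the numbers did not pair the samples, 20 of the 52 genes were higher, 13 of them of mitosis, 5 of replication and 2 of G1/S, and 1281 features were higher and 1301 lower. Of the 33 calls, 20 held in all 6 fits without 1 array, and 3 held in none of them. Rounding of dim signals limits what the 38 genes with a level under 0.5 can show. The level takes in the ApoE KO ratios, so genes that rose there pass the cut more easily.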
